A study of Arabidopsis thaliana with 12 samples.

Results

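Open flowers and floral buds of the Arabidopsis thaliana line labelled ASK1 WT were compared across all genes, using the libraries whose titles name that line. These were 4 of the 12 libraries of the series, 2 from open flowers and 2 from buds. ASK1 WT carries the wild-type allele of ASK1, a SKP1-like core subunit of SCF ubiquitin ligases, and the series also holds open flowers and buds of ask1, a mutant labelled with the Ds transposon, and of Col-0, with 2 libraries per group. All 12 libraries carry the strain label Col-0. Flowers or buds of primary inflorescences (10 to 50 mg) were collected 5 h after dawn from plants grown with 16 h of light at 150 µmol/m2/s and 8 h of darkness, at 21 and 19 °C. Read pairs of 150 nt were sequenced on a NovaSeq instrument. The labels do not say whether the 2 libraries of a group came from separate plants, so p-values measure only the spread between these libraries, which may be technical. They also do not say which bud stages were pooled, and each library mixes all floral organs.

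A bud holds anthers in which meiosis, the tapetum and young pollen are still at work. The tapetum is the innermost anther layer: it feeds the microspores, makes the sporopollenin of the outer pollen wall and supplies the pollen coat, and it degenerates before the flower opens. In an open flower the anthers have shed mature pollen, petals and filaments have finished growing, nectaries secrete, ovules may have been fertilised, and sepals, petals and stamens move towards senescence and abscission.

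The ASK1 WT open flower libraries held 23426466 and 18007376 counts in genes and the bud libraries 15146001 and 18809497, within the range of all 12 libraries (13780265 to 23426466). Levels are CPM, counts over the library total scaled to a common size and by library composition (TMM). Before the TMM scaling, a count of 0 allows a level of up to 0.128 and 0.167 CPM in the open flower libraries. In the bud libraries it allows up to 0.198 and 0.159 CPM (3 counts, counting error only). Replicates of ASK1 WT correlated at r = 0.996 in open flowers and 0.995 in buds across genes on the log2 CPM scale, while the ask1 open flower libraries correlated at 0.971. Because all 6 groups share 1 estimate of the spread in the edgeR fit, that last pair enters the spread used for ASK1 WT. Fold changes below are log2 of open flowers over buds ± SE (n = 2 libraries per tissue). A gene is said to have risen or fallen where its adjusted p from edgeR's quasi-likelihood test with Benjamini-Hochberg adjustment over 21890 tested genes was under 0.05.

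Open flowers and buds differed in 7738 of the 21890 tested genes (35.3%). Levels rose in open flowers for 4032 genes (18.4%) and fell for 3706 (16.9%). These shares are the background for every count of list or family members below. The 2 tissues did not overlap in 16960 genes (77.5%), which included all 7738. Falls reached further than rises: at least 32-fold by the fitted value for 641 genes that fell and 312 that rose, and 349 of the genes that fell had 0 counts in both open flower libraries while 171 of the genes that rose had 0 counts in both bud libraries. The median log2 fold change over all tested genes was -0.02. Without ask1 open flower library 1, 6270 genes rose and 4705 fell; without 1 of the ASK1 WT libraries 2815 to 3371 rose and 2366 to 2742 fell, where the spread of the lone library is taken from the other groups. Falls were 2390 without ASK1 WT open flower library 1 and 2366 without library 2. In whole organs, fewer cells of a type and less RNA per cell cannot be told apart. Which strand the authors counted is not given in the sources used here. Of the tested genes 26.7%, and of the changed genes 22.1%, overlap a gene on the opposite strand. Their counts are uncertain, and such genes are named at the end of a paragraph.

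**Figure D1:**
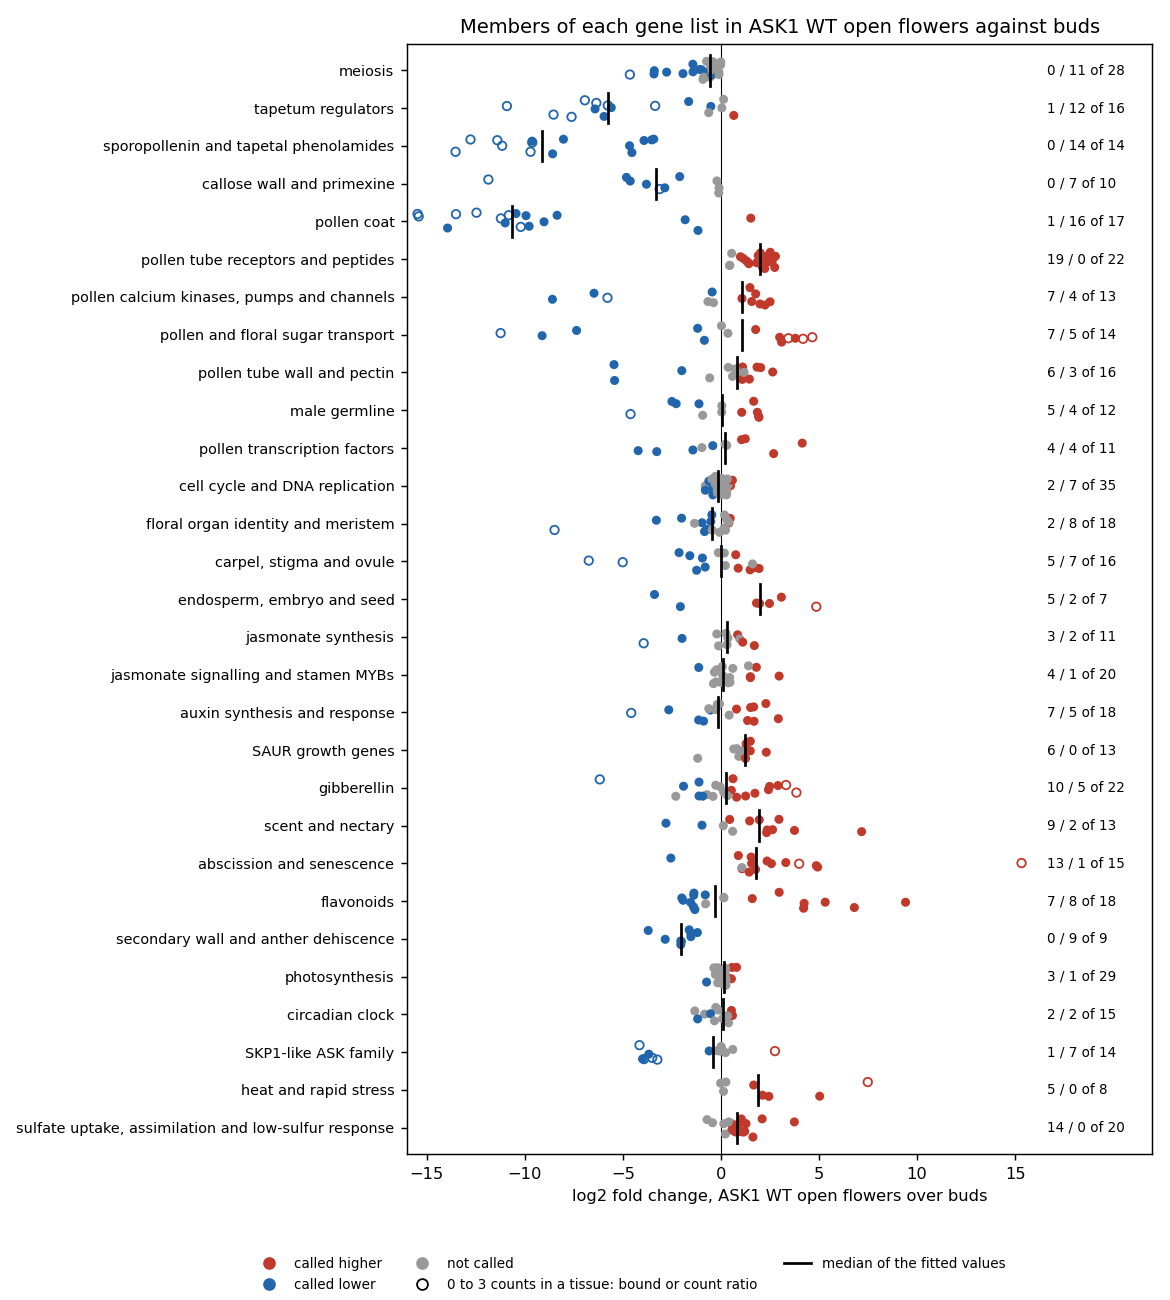
Log2 fold change of open flowers over buds in ASK1 WT (horizontal axis) for each tested member of the gene lists (one line of points per list, with the numbers that rose and fell). Bars mark list medians of the fitted values, and open circles are genes with 0 to 3 counts in a tissue, drawn at their bound or count ratio: all 14 sporopollenin genes lie left of 0, and 19 of the 22 pollen tube receptor and peptide genes rose.

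Most genes of the pollen wall and coat fell in open flowers, and those for sporopollenin and the coat fell furthest. All 14 genes for sporopollenin and tapetal phenolamides fell, with a median of -9.10 and a summed level of 27.6 and 28.2 CPM in open flowers, against 1936 and 1971 CPM in buds. Of 17 pollen coat genes 16 fell and 1 rose (median -10.63, or -10.44 with genes of 0 to 3 counts in a tissue at their bound or count ratio), and their sum was 163 and 151 CPM in open flowers, against 12409.6 and 12931 CPM in buds. The callose and primexine genes gave 7 falls and no rise among 10 (median -3.33, or -2.99 at bounds). Their sum was 236 and 244 CPM in open flowers, against 940 and 1012 CPM in buds. Among the 16 tapetum regulators 12 fell and 1 rose (median -5.77, or -5.68 at bounds). These summed to 164 and 170 CPM in open flowers, against 358 and 355 CPM in buds. In Col-0 the same lists gave 14, 16, 7 and 12 falls.

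The sporopollenin genes divided into a near-silent set and a set that kept a low level in open flowers. ACOS5 (AT1G62940), the acyl-CoA synthetase that starts the sporopollenin route, had 0 counts in both open flower libraries, against 182 and 166 CPM in buds (at least 2271-fold lower). CYP703A2 (AT1G01280), a fatty acid hydroxylase of the same route, had 0 counts in both open flower libraries, against 56.5 and 62.3 CPM in buds (at least 784-fold lower). MS2 (AT3G11980), a fatty acyl reductase, had 0 and 0.0583 CPM in open flowers, against 197 and 161 CPM in buds (a count ratio of 6958-fold lower, lower bound of its 95% interval 1248-fold). These 3 genes were at or next to the detection limit in open flowers. LAP6 (AT1G02050) and LAP5 (AT4G34850), polyketide synthases that act together, were unequal in open flowers: LAP6 had 7.47 and 7.35 CPM in open flowers, against 183 and 191 CPM in buds (log2 fold change -4.66 ± 0.13, edgeR adjusted p = 6.70e-09). LAP5 had 0.225 and 0.0583 CPM in open flowers, against 127 and 124 CPM in buds (log2 fold change -9.63 ± 0.30, edgeR adjusted p = 1.04e-08). The reductases TKPR1 and TKPR2 and the hydroxylase CYP704B1 also kept between 4.77 and 5.94 CPM in the open flower libraries, well below every bud library. SHT (AT2G19070), the acyltransferase that makes tapetal spermidine conjugates, had 0 counts in both open flower libraries, against 203 and 207 CPM in buds (at least 2698-fold lower), and TSM1 (AT1G67990), a methyltransferase of the same pathway, had 0 and 0.0583 CPM in open flowers, against 257 and 333 CPM in buds (a count ratio of 11791-fold lower, lower bound of its 95% interval 2116-fold). LAP5 and SHT overlap an opposite-strand gene.

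The transcription factors above these enzymes fell as well. SPL (AT4G27330), needed to form the sporogenous and tapetal cells, had 0.0900 and 0 CPM in open flowers, against 20.3 and 17.6 CPM in buds (a count ratio of 370.0-fold lower, 95% interval 102 to 3062). DYT1 (AT4G21330), an early tapetal bHLH factor, had 0 counts in both open flower libraries, against 0.584 and 0.931 CPM in buds (at least 10.2-fold lower). AMS (AT2G16910), a bHLH factor that activates sporopollenin genes, had 0.0450 and 0.0583 CPM in open flowers, against 96.9 and 98.2 CPM in buds (a count ratio of 1922-fold lower, 95% interval 532 to 15876). Buds were above open flowers in every library for these 3 genes, with AMS the most abundant of them in buds and DYT1 the least. MS1 (AT5G22260), a PHD-finger regulator of late tapetal function, had 0 counts in both open flower libraries, against 13.1 and 16.3 CPM in buds (at least 196-fold lower). MYB80 (AT5G56110), a regulator of the timing of tapetal breakdown, had 0.0450 and 0 CPM in open flowers, against 2.40 and 3.67 CPM in buds (a count ratio of 122-fold lower, 95% interval 21.5 to 4878). The receptor-like kinases that specify the tapetum behaved otherwise: EMS1 (AT5G07280) had 72.3 and 71.5 CPM in open flowers, against 65.1 and 65.6 CPM in buds (log2 fold change 0.14 ± 0.19, edgeR adjusted p = 0.644), and SERK1 (AT1G71830), which also acts in other tissues, rose with 56.9 and 62.3 CPM in open flowers, against 36.8 and 38.7 CPM in buds (log2 fold change 0.66 ± 0.11, edgeR adjusted p = 7.89e-04). AMS and SERK1 overlap an opposite-strand gene.

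The callose wall around the meiotic cells and its removal gave a graded picture. MEE48 (AT4G14080), a glycosyl hydrolase gene, had 0 counts in both open flower libraries, against 256 and 302 CPM in buds (at least 3699-fold lower). QRT3 (AT4G20050), a polygalacturonase that separates the tetrads, had 7.42 and 9.80 CPM in open flowers, against 244 and 239 CPM in buds (log2 fold change -4.81 ± 0.20, edgeR adjusted p = 4.96e-08). CALS5 (AT2G13680), the main callose synthase of the tetrad wall, had 40.5 and 40.7 CPM in open flowers, against 173 and 174 CPM in buds (log2 fold change -2.10 ± 0.38, edgeR adjusted p = 0.00122). Open flowers were below buds in each of these genes, from undetected for MEE48 to a clear residual level for CALS5. The primexine genes NPU (AT3G51610), DEX1 (AT3G09090) and NEF1 (AT5G13390) did not pass the test, at log2 fold changes of -0.20 ± 0.14, -0.11 ± 0.15 and -0.09 ± 0.24. DEX1 and NEF1 overlap an opposite-strand gene.

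Of 28 tested meiosis genes 11 fell and none rose, with a median of -0.57 and a summed level of 92.5 and 96.5 CPM in open flowers, against 134 and 152 CPM in buds. ASY1 (AT1G67370), a protein of the meiotic chromosome axis, had 0.180 and 0.233 CPM in open flowers, against 1.69 and 2.74 CPM in buds (log2 fold change -3.41 ± 0.55, edgeR adjusted p = 5.98e-04). SYN1 (AT5G05490), the meiotic cohesin subunit REC8, had 0.540 and 1.22 CPM in open flowers, against 6.04 and 5.69 CPM in buds (log2 fold change -2.77 ± 0.35, edgeR adjusted p = 1.25e-04). MS5 (AT4G20900), needed for exit from meiosis, had 0.0450 and 0.117 CPM in open flowers, against 1.56 and 2.17 CPM in buds (a count ratio of 24.9-fold lower, 95% interval 8.17 to 124). Buds were above open flowers in both libraries for each of them. The meiotic recombinase DMC1 (AT3G22880) gave a log2 fold change of -0.56 ± 0.22 and did not pass. The count of falls was between 6 and 8 when an ASK1 WT library was left out and 14 when only the 4 ASK1 WT libraries were fitted. ASY1, SYN1 and MS5 overlap an opposite-strand gene.

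Some of the largest pollen coat losses came from a cluster of glycine-rich oleosin-like genes on chromosome 5. Pollen coat GRPs are oleosin-domain proteins that the tapetum loads onto pollen. GRP17 (AT5G07530), the most abundant of them and a gene known to be needed for pollen to hydrate on the stigma, had 0.135 and 0.467 CPM in open flowers, against 4341 and 4711 CPM in buds (log2 fold change -13.93 ± 0.47, edgeR adjusted p = 1.52e-08). GRP19 (AT5G07550) had 0 and 0.0583 CPM in open flowers, against 1088 and 1193 CPM in buds (a count ratio of 45138-fold lower, lower bound of its 95% interval 8101-fold). GRP16 (AT5G07540) had 0 counts in both open flower libraries, against 432 and 427 CPM in buds (at least 5634-fold lower). All buds were high and all open flowers at or near 0. GRP14 (AT5G07510), GRP18 (AT5G07520) and GRP20 (AT5G07560) fell with log2 fold changes of -9.93 ± 0.39, -9.02 ± 0.28 and -11.00 ± 0.45. The 6 genes lie side by side on the minus strand of chromosome 5, from 2377703 (GRP14) to 2391439 (GRP20) in TAIR10.1. As close copies they may share reads. Per length of exon, GRP17 was the fourth highest gene in buds, with 0.154 RPKM in open flowers against 2310.4 RPKM in buds. GRP16 overlaps an opposite-strand gene.

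Promoter bases from the TAIR10.1 RefSeq annotation were read for genes of this cluster (250 bases upstream of the gene start, minus strand, written 5′ to 3′), because they share a short run. The 20-base run ATCGTTTTGCATGGAGCATG stands in capitals in GRP17 and GRP19, starting 90 and 81 bases before the gene start. It was found in 3 of 21825 promoters of tested genes, those of GRP16, GRP17 and GRP19, on the strand of the gene. Its first 13 bases, ATCGTTTTGCATG, also occurred in GRP18 and in 5 of 21825 promoters. The 10 bases GTTTTGCATG, in capitals in GRP14, occurred in 12 of 21825. GRP20 had none of these runs. A match is a description of the letters only. The regions are chr5:2378830-2379079 for GRP14, chr5:2384526-2384775 for GRP17 and chr5:2389250-2389499 for GRP19.
GRP14: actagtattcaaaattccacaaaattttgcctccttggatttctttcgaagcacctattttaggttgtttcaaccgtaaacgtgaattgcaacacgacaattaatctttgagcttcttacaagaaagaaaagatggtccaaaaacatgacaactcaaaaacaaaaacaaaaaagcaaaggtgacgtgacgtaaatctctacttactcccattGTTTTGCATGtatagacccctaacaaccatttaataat
GRP17: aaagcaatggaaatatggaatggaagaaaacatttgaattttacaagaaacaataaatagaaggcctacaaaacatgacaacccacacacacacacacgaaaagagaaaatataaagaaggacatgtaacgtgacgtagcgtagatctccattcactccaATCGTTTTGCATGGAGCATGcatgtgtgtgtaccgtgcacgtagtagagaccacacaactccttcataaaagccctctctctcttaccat
GRP19: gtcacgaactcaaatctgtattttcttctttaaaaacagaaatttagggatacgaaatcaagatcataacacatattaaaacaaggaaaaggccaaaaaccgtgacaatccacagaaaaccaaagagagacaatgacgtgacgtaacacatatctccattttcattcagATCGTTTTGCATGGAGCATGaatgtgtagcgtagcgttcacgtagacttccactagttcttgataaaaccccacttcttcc

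A group of coat genes also lies beside ASK1 itself on chromosome 1. ASK1 (AT1G75950; chromosome 1, 28516519 to 28517896) had 289 and 299 CPM in open flowers, against 247 and 250.1 CPM in buds (log2 fold change 0.24 ± 0.36, edgeR adjusted p = 0.672): both open flower libraries stood a little above both bud libraries, and the difference did not pass the test. Upstream of it, EXL4 (AT1G75910), an extracellular lipase of the coat, had 0.360 and 0.817 CPM in open flowers, against 781 and 811 CPM in buds (log2 fold change -10.44 ± 0.29, edgeR adjusted p = 6.70e-09). EXL6 (AT1G75930), a related lipase gene, had 0.0450 and 0 CPM in open flowers, against 276 and 310.2 CPM in buds (a count ratio of 11614-fold lower, lower bound of its 95% interval 2084-fold). ATA27 (AT1G75940), a glycosyl hydrolase gene next to ASK1 at chromosome 1, 28511142 to 28514284, had 0 and 0.0583 CPM in open flowers, against 1049.6 and 1145 CPM in buds (a count ratio of 43413-fold lower, lower bound of its 95% interval 7791-fold). Open flowers were near 0 at these 3 genes and buds were high. AT1G75900, a GDSL-like lipase gene in the same row, was the single coat-list member that rose: 121 and 111 CPM in open flowers, against 42.2 and 38.4 CPM in buds (log2 fold change 1.52 ± 0.15, edgeR adjusted p = 1.59e-05). Beyond ASK1, AT1G75960, an AMP-dependent synthetase gene, had 7.65 and 9.74 CPM in open flowers, against 10.9 and 8.12 CPM in buds (log2 fold change -0.13 ± 0.27, edgeR adjusted p = 0.765).

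**Figure D2:**
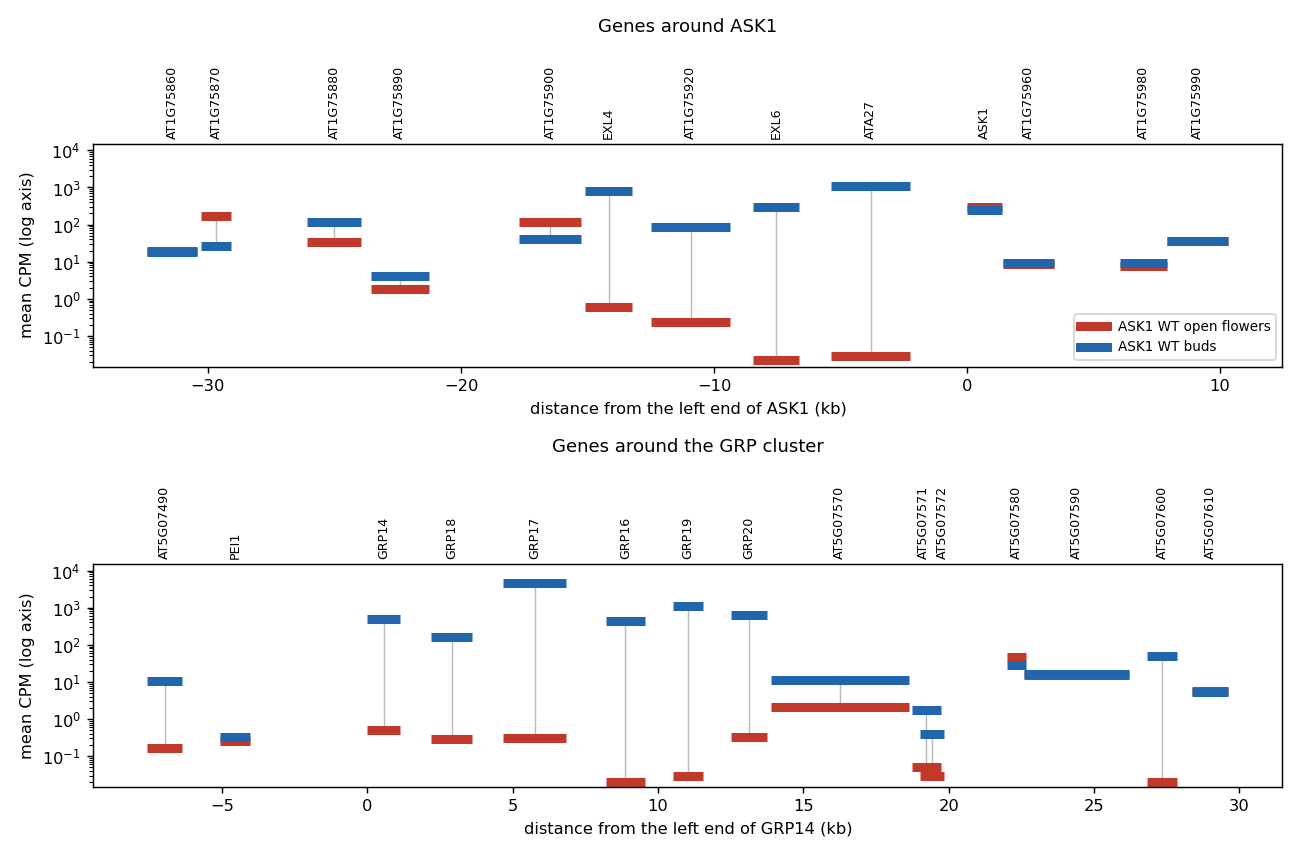
Mean CPM of ASK1 WT open flowers and buds (log axis, n = 2 libraries each, values under 0.02 CPM drawn at 0.02) by gene position relative to the left end of ASK1 and of GRP14. EXL4, EXL6, ATA27 and the 6 GRP genes stand high in buds and near the bottom in open flowers, while ASK1 did not pass the test.

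Other anther and secreted products followed. ATA20 (AT3G15400), a gene known from anthers, had 3.01 and 2.62 CPM in open flowers, against 2473 and 2497 CPM in buds (log2 fold change -9.77 ± 0.29, edgeR adjusted p = 8.34e-09). ATA7 (AT4G28395), a lipid-transfer-like gene, had 0 counts in both open flower libraries, against 168 and 192 CPM in buds (at least 2378-fold lower). LTP12 (AT3G51590), a lipid transfer protein, had 0 counts in both open flower libraries, against 334 and 351 CPM in buds (at least 4507-fold lower). All bud libraries were high and all open flower libraries near or at 0 for these genes. The P450 CYP705A24 (AT1G28430) had 0 counts in both open flower libraries, against 97.7 and 118 CPM in buds (at least 1430.5-fold lower), and ATA1 (AT3G42960), named from the tapetum, had 0 counts in both open flower libraries, against 88.8 and 90.4 CPM in buds (at least 1177-fold lower). Of 81 tested lipid transfer protein genes 33 fell (40.7%, against 16.9% of all tested genes) and 26 rose (32.1%, against 18.4%), with a median of 0.20.

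All 9 secondary wall genes fell, with a median of -2.01. These genes thicken the anther endothecium, whose shrinkage opens the anther, and the walls of vascular cells. NST2 (AT3G61910), an endothecium NAC regulator, had 0.405 and 0.233 CPM in open flowers, against 5.19 and 3.57 CPM in buds (log2 fold change -3.71 ± 0.68, edgeR adjusted p = 0.00145). LAC4 (AT2G38080), a lignin laccase, had 24.1 and 23.7 CPM in open flowers, against 172 and 170.3 CPM in buds (log2 fold change -2.84 ± 0.15, edgeR adjusted p = 2.48e-07). MYB26 (AT3G13890), upstream of the NST factors in anthers, had 3.64 and 2.80 CPM in open flowers, against 8.57 and 6.36 CPM in buds (log2 fold change -1.20 ± 0.36, edgeR adjusted p = 0.0232). The cellulose synthases of the secondary wall, CESA4 (AT5G44030), CESA7 (AT5G17420) and CESA8 (AT4G18780), fell with log2 fold changes of -2.04 ± 0.16, -1.62 ± 0.15 and -1.54 ± 0.22. CESA4, CESA7 and CESA8 overlap an opposite-strand gene.

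Pollen tube genes moved the other way. Of the 22 receptor and peptide genes 19 rose and none fell (median 1.99 against -0.02 for all genes), and their sum was 5396 and 4691 CPM in open flowers, against 1121 and 1084 CPM in buds. Every one of the 22 was above both buds in both open flower libraries. Counting both directions, the tissues did not overlap in 77.5% of all tested genes. ANX2 (AT5G28680), which with ANX1 keeps the growing tube from bursting, had 219 and 192 CPM in open flowers, against 35.6 and 36.1 CPM in buds (log2 fold change 2.52 ± 0.25, edgeR adjusted p = 1.94e-05). ANX1 (AT3G04690) itself had 40.2 and 33.2 CPM in open flowers, against 26.5 and 26.9 CPM in buds (log2 fold change 0.46 ± 0.25, edgeR adjusted p = 0.187) and did not pass. PRK2 (AT2G07040) and PRK6 (AT5G20690), receptor kinases of which PRK6 senses the ovule's LURE attractants, rose with log2 fold changes of 2.01 ± 0.47 and 1.90 ± 0.20. LIP1 (AT5G16500) and LIP2 (AT3G02810), membrane kinases of tube guidance, rose with log2 fold changes of 1.97 ± 0.38 and 2.52 ± 0.32. The peptide RALFL4 (AT1G28270), an autocrine signal of tube integrity, had 216 and 181 CPM in open flowers, against 81.3 and 81.5 CPM in buds (log2 fold change 1.29 ± 0.35, edgeR adjusted p = 0.0146). RALFL19 (AT2G33775), its partner, had 247 and 222 CPM in open flowers, against 55.6 and 53.5 CPM in buds (log2 fold change 2.103 ± 0.29, edgeR adjusted p = 2.08e-04). The switch of polar growth, ROP1 (AT3G51300), and its activator ROPGEF12 (AT1G79860) rose with log2 fold changes of 1.14 ± 0.17 and 1.38 ± 0.28, while ROPGEF9 (AT4G13240) and PRK3 (AT3G42880) did not pass (log2 fold changes 0.55 ± 0.20 and 0.44 ± 0.31). Leaving out an ASK1 WT library left between 16 and 19 rises. ANX1 and ROP1 overlap an opposite-strand gene.

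Ion pumps and sugar carriers of pollen divided within their own families. Among 13 calcium kinases, pumps and channels 7 rose (53.8%, against 18.4% of all tested genes) and 4 fell (30.8%, against 16.9%). Among 14 sugar transport genes 7 rose (50%) and 5 fell (35.7%). The proton pumps show it: AHA9 (AT1G80660) had 1.98 and 1.11 CPM in open flowers, against 534 and 685 CPM in buds (log2 fold change -8.59 ± 0.67, edgeR adjusted p = 3.54e-06). AHA6 (AT2G07560) had 5.89 and 3.85 CPM in open flowers, against 403 and 468 CPM in buds (log2 fold change -6.47 ± 0.59, edgeR adjusted p = 1.12e-05). AHA8 (AT3G42640) had 1228 and 1116 CPM in open flowers, against 303 and 286 CPM in buds (log2 fold change 1.99 ± 0.27, edgeR adjusted p = 1.88e-04). AHA6 and AHA9 were high in both bud libraries and low in both open flower libraries, and AHA8 was higher in open flowers. CPK17 (AT5G12180) and CPK34 (AT5G19360), calcium-dependent kinases of tube tip growth, rose with log2 fold changes of 2.51 ± 0.30 and 1.58 ± 0.23, as did the calcium pump ACA9 (AT3G21180) (log2 fold change 1.07 ± 0.28) and the potassium channel SPIK (AT2G25600) (log2 fold change 1.77 ± 0.19). The vacuolar potassium channel TPK4 (AT1G02510) had 0 and 0.117 CPM in open flowers, against 2.21 and 3.26 CPM in buds (a count ratio of 55.0-fold lower, 95% interval 14.8 to 460.3). AHA9, AHA8, CPK34 and ACA9 overlap an opposite-strand gene.

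Among the hexose carriers, STP2 (AT1G07340) had 0.0450 and 0 CPM in open flowers, against 53.2 and 67.1 CPM in buds (a count ratio of 2399-fold lower, 95% interval 430.1 to 94800.0). STP9 (AT1G50310) had 0.405 and 0.350 CPM in open flowers, against 222 and 208 CPM in buds (log2 fold change -9.11 ± 0.57, edgeR adjusted p = 7.27e-07), and STP6 (AT3G05960) had 0.360 and 0.467 CPM in open flowers, against 66.9 and 68.8 CPM in buds (log2 fold change -7.36 ± 0.67, edgeR adjusted p = 1.09e-05). STP11 (AT5G23270) had 384 and 331 CPM in open flowers, against 43.0 and 40.6 CPM in buds (log2 fold change 3.10 ± 0.33, edgeR adjusted p = 3.18e-05). STP2, STP6 and STP9 were high in buds and STP11 in open flowers, with no overlap between tissues in any. The sucrose carriers SUC7 (AT1G66570), SUC8 (AT2G14670) and SUC9 (AT5G06170) were at 0 or near 0 in buds and between 0.583 and 2.97 CPM in open flowers, but they are close copies that may share reads. SUC1 (AT1G71880), the sucrose carrier of pollen and other tissues, fell, with 159 and 190.0 CPM in open flowers, against 283 and 343 CPM in buds (log2 fold change -0.84 ± 0.21, edgeR adjusted p = 0.00823). The cell wall invertase CWINV2 (AT3G52600) rose, with 256 and 236 CPM in open flowers, against 78.2 and 65.9 CPM in buds (log2 fold change 1.77 ± 0.38, edgeR adjusted p = 0.00385). STP9 and CWINV2 overlap an opposite-strand gene.

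**Figure D3:**
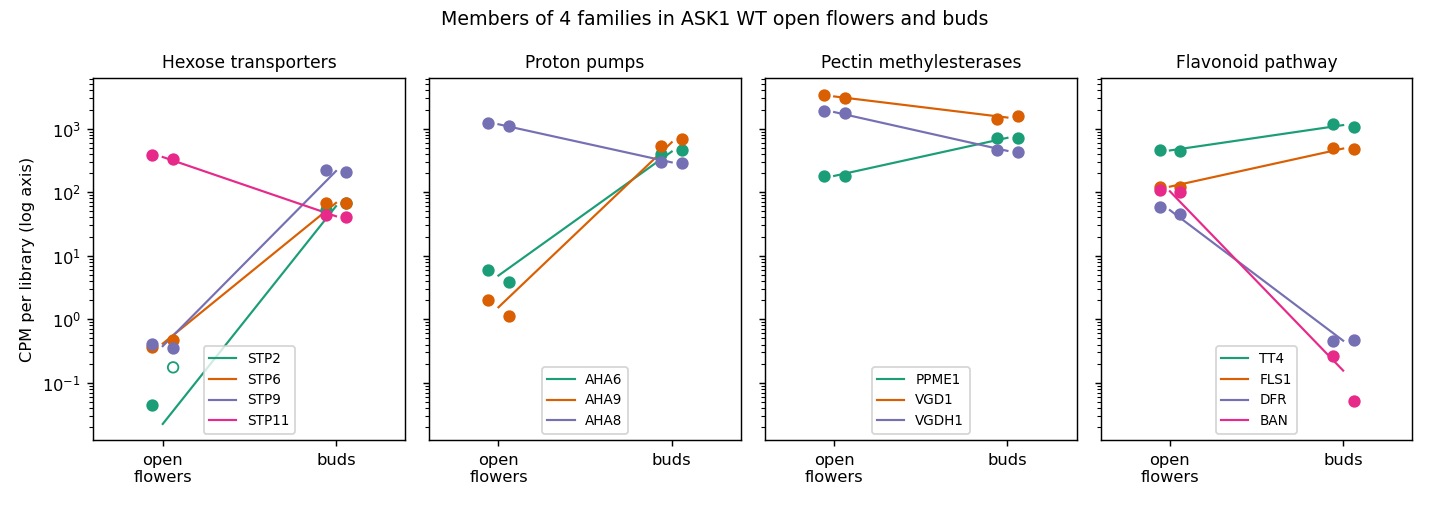
CPM per library (log axis, 2 libraries each of ASK1 WT open flowers and buds; lines join tissue means; open circles are 0 counts drawn at the 3-count level) for hexose carriers, proton pumps, pectin methylesterases and flavonoid genes. Within each family some members stand higher in open flowers (STP11, AHA8, VGDH1, DFR) and others higher in buds (STP9, AHA6, PPME1, TT4).

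The 16 genes listed for pectin and the pollen tube wall summed to 16449 and 14798 CPM in open flowers, against 7985 and 8141 CPM in buds. Of them 6 rose (37.5%, against 18.4% of all tested genes) and 3 fell (18.75%, against 16.9%). VGD1 (AT2G47040), a pectin methylesterase needed for tube growth in the style, had 3399 and 3029 CPM in open flowers, against 1423 and 1567 CPM in buds (log2 fold change 1.104 ± 0.37, edgeR adjusted p = 0.0375). VGDH1 (AT2G47030), its neighbour and close copy, had 1902 and 1746 CPM in open flowers, against 459.9 and 433 CPM in buds (log2 fold change 2.03 ± 0.48, edgeR adjusted p = 0.00681). PPME1 (AT1G69940), another pollen methylesterase, had 182 and 179 CPM in open flowers, against 711 and 724 CPM in buds (log2 fold change -1.99 ± 0.46, edgeR adjusted p = 0.00582). VGD1 and VGDH1 were higher in open flowers and PPME1 in buds. The pollen arabinogalactan proteins AGP11 (AT3G01700) and AGP6 (AT5G14380) gave log2 fold changes of 1.84 ± 0.49 and 1.18 ± 0.48, and AGP6 did not pass (edgeR adjusted p = 0.0782). QRT1 (AT5G55590), a methylesterase of tetrad separation, had 0.135 and 0.233 CPM in open flowers, against 6.95 and 9.20 CPM in buds (log2 fold change -5.45 ± 0.40, edgeR adjusted p = 2.19e-06). The number of rises was 1 to 3 without 1 of the ASK1 WT libraries and 10 in the fit of the 4 libraries alone. QRT1 overlaps an opposite-strand gene.

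Across the whole family of pectin methylesterases and their inhibitors, 57 of 100 tested genes rose and 14 fell (median 1.03). Of all tested genes 18.4% rose and 16.9% fell. Polygalacturonases and pectate lyases gave 30 rises (32.6%) and 29 falls (31.5%) among 92. Xyloglucan endotransglucosylases, which loosen and rebuild growing walls, gave 13 rises (54.2%) and 5 falls (20.8%) among 24. Expansins gave 11 rises (40.7%) and 5 falls (18.5%) among 27. When an ASK1 WT library was left out, the 5 falls became 2 to 4 for the endotransglucosylases and 1 to 4 for the expansins. XTH24 (AT4G30270) had 1518 and 1621 CPM in open flowers, against 167 and 141 CPM in buds (log2 fold change 3.35 ± 0.18, edgeR adjusted p = 3.30e-07), among the larger gains in CPM. A run of expansin genes on chromosome 5 included EXPA25 (AT5G39300), with 8.23 and 8.17 CPM in open flowers, against 0 counts in both bud libraries (at least 95.01-fold higher). EXPA24 (AT5G39310), in the same run, fell, with 2.38 and 2.33 CPM in open flowers, against 20.12 and 15.2 CPM in buds (log2 fold change -2.90 ± 0.40).

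Male germline genes moved in both directions. Of 12 tested genes 5 rose (41.7%, against 18.4% of all tested genes) and 4 fell (33.3%, against 16.9%). DUO1 (AT3G60460), the MYB factor that starts the sperm programme, had 0.315 and 0.0583 CPM in open flowers, against 0.844 and 1.45 CPM in buds (log2 fold change -2.50 ± 0.82, edgeR adjusted p = 0.0355). Its target DAZ1 (AT2G17180) had 0.0900 and 0 CPM in open flowers, against 0.909 and 1.4996 CPM in buds. DAZ2 (AT4G35280), another target, had 0.270 and 0.175 CPM in open flowers, against 1.298 and 0.982 CPM in buds. Both targets fell. DAZ3 (AT4G35700), another zinc-finger target, had 57.0 and 49.2 CPM in open flowers, against 16.0 and 11.7 CPM in buds (log2 fold change 1.94 ± 0.27, edgeR adjusted p = 2.30e-04), and GEX1 (AT5G55490), a gamete membrane protein, had 29.9 and 25.1 CPM in open flowers, against 7.79 and 6.77 CPM in buds (log2 fold change 1.92 ± 0.23, edgeR adjusted p = 8.70e-05). GCS1 (AT4G11720), the gamete fusion protein, had 2.07 and 1.52 CPM in open flowers, against 2.08 and 1.45 CPM in buds (log2 fold change 0.05 ± 0.34, edgeR adjusted p = 0.94) and did not pass. The 4 falls became 1 to 3 when an ASK1 WT library was left out. DUO1 overlaps an opposite-strand gene.

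Pollen transcription factors also gave 4 rises and 4 falls among 11 (36.4% each, against 18.4% and 16.9% of all tested genes). MYB97 (AT4G26930), MYB101 (AT2G32460) and MYB120 (AT5G55020), which together let the tube discharge its sperm, rose with log2 fold changes of 2.69 ± 0.27, 1.25 ± 0.14 and 4.15 ± 0.63. MYB101 was the most abundant, with 105 and 95.2 CPM in open flowers, against 39.3 and 45.0 CPM in buds. WRKY34 (AT4G26440), active in developing pollen, had 0.405 and 0.233 CPM in open flowers, against 7.01 and 5.48 CPM in buds (log2 fold change -4.22 ± 0.41, edgeR adjusted p = 1.87e-05). The MADS factors AGL94 (AT1G69540) and AGL104 (AT1G22130) fell with log2 fold changes of -3.27 ± 0.31 and -1.43 ± 0.28. MYB97 and WRKY34 overlap an opposite-strand gene.

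Of 18 tested genes for the flower meristem and organ identity 8 fell (44.4%, against 16.9% of all tested genes) and 2 rose (11.1%, against 18.4%). Most kept a clear level in open flowers. WUS (AT2G17950), the organiser of the stem cells in the flower meristem, had 0.0900 and 0 CPM in open flowers, against 15.9 and 19.9 CPM in buds (a count ratio of 357-fold lower, 95% interval 98.4 to 2954). LFY (AT5G61850), which switches on the flower programme, had 0.315 and 0.350 CPM in open flowers, against 3.51 and 3.10 CPM in buds (log2 fold change -3.29 ± 0.42, edgeR adjusted p = 1.93e-04). AP1 (AT1G69120), for sepals and petals, had 29.3 and 26.7 CPM in open flowers, against 109.8 and 115 CPM in buds (log2 fold change -2.003 ± 0.17, edgeR adjusted p = 5.54e-06). Open flowers were below buds in all of these, WUS at the detection limit. AP3 (AT3G54340) and PI (AT5G20240), for petals and stamens, fell with log2 fold changes of -0.83 ± 0.13 and -0.46 ± 0.16, and AG (AT4G18960), for stamens and carpels, with a log2 fold change of -0.96 ± 0.12. SEP3 (AT1G24260) fell (log2 fold change -0.51 ± 0.18), while its co-factors SEP1 (AT5G15800) and SEP2 (AT3G02310) rose with log2 fold changes of 0.48 ± 0.13 and 0.41 ± 0.12. Rises and falls became 0 to 2 and 5 to 6 without 1 ASK1 WT library. SEP1 overlaps an opposite-strand gene.

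Of 16 tested carpel and ovule genes 7 fell and 5 rose, with the 3 HEC genes among the falls and STK, TT16, INO, SHP1 and SHP2 as the rises. HEC2 (AT3G50330), with HEC1 and HEC3 a regulator of stigma and transmitting tract, had 0 counts in both open flower libraries, against 2.60 and 2.33 CPM in buds (at least 32.1-fold lower). HEC1 (AT5G67060), its close relative, had 0.0450 and 0 CPM in open flowers, against 2.47 and 2.90 CPM in buds (a count ratio of 107-fold lower, 95% interval 18.7 to 4252). ANT (AT4G37750), a growth regulator of organ primordia and ovule integuments, had 24.2 and 26.1 CPM in open flowers, against 55.9 and 62.5 CPM in buds (log2 fold change -1.24 ± 0.14, edgeR adjusted p = 4.34e-05). For these 3 genes all bud libraries were above all open flower libraries. STK (AT4G09960), the ovule identity MADS gene, had 114 and 113 CPM in open flowers, against 35.2 and 33.2 CPM in buds (log2 fold change 1.73 ± 0.17, edgeR adjusted p = 2.35e-05). SHP2 (AT2G42830) and SHP1 (AT3G58780), close relatives of STK, rose with log2 fold changes of 1.49 ± 0.12 and 0.88 ± 0.12. TT16 (AT5G23260), a MADS factor of the inner integument and seed coat, had 13.7 and 13.2 CPM in open flowers, against 3.96 and 3.05 CPM in buds (log2 fold change 1.95 ± 0.29, edgeR adjusted p = 3.86e-04), and was higher in both open flower libraries. STK, SHP2 and SHP1 overlap an opposite-strand gene.

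Of 19 genes on the endosperm, embryo and seed list 7 had enough counts to be tested, of which 5 rose and 2 fell. PHE1 (AT1G65330), an imprinted endosperm MADS gene, had 2.74 and 2.22 CPM in open flowers, against 0 counts in both bud libraries (at least 29.1-fold higher). FIS2 (AT2G35670), a Polycomb subunit of the central cell, had 1.75 and 1.28 CPM in open flowers, against 0.260 and 0.103 CPM in buds (log2 fold change 3.09 ± 0.65, edgeR adjusted p = 0.00534). AGL62 (AT5G60440), which holds off endosperm cellularisation, had 3.06 and 2.68 CPM in open flowers, against 0.974 and 0.672 CPM in buds (log2 fold change 1.82 ± 0.36, edgeR adjusted p = 0.00246). These 3 genes were higher in open flowers, at no more than 3.06 CPM. The storage protein genes SESA1 and SESA3 and the oleosin OLEO1 had 0 counts in all 4 libraries. FUS3 (AT3G26790), a seed maturation regulator, fell, with 0.585 and 0.525 CPM in open flowers, against 4.74 and 6.98 CPM in buds. WOX9 (AT2G33880), a homeobox gene, fell too, with 10.3 and 7.52 CPM in open flowers, against 36.2 and 38.8 CPM in buds. FIS2 overlaps an opposite-strand gene.

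Flavonoid genes divided by branch. Of 18 genes 7 rose (38.9%, against 18.4% of all tested genes) and 8 fell (44.4%, against 16.9%). TT4 (AT5G13930), chalcone synthase, had 464 and 443 CPM in open flowers, against 1196 and 1078 CPM in buds (log2 fold change -1.33 ± 0.23, edgeR adjusted p = 0.00103). FLS1 (AT5G08640), which makes flavonols, had 122 and 123 CPM in open flowers, against 497 and 475 CPM in buds (log2 fold change -1.99 ± 0.24, edgeR adjusted p = 8.69e-05). The regulators of flavonol genes MYB12 (AT2G47460) and MYB111 (AT5G49330) fell with them, with log2 fold changes of -1.93 ± 0.18 and -1.54 ± 0.19. The 7 rises were all genes of the branch to anthocyanins and proanthocyanidins. DFR (AT5G42800), its entry enzyme, had 58.7 and 45.6 CPM in open flowers, against 0.454 and 0.465 CPM in buds (log2 fold change 6.80 ± 0.64, edgeR adjusted p = 1.40e-05). LDOX (AT4G22880) had 60.6 and 49.9 CPM in open flowers, against 1.298 and 1.45 CPM in buds (log2 fold change 5.32 ± 0.45, edgeR adjusted p = 6.84e-06). BAN (AT1G61720), the anthocyanidin reductase of the seed coat, had 108 and 99.0 CPM in open flowers, against 0.260 and 0.0517 CPM in buds (log2 fold change 9.41 ± 0.55, edgeR adjusted p = 4.84e-07). Both open flower libraries were far above both bud libraries at each of these 3 genes. TT8 (AT4G09820), a bHLH activator of this branch, and PAP1 (AT1G56650), a MYB activator, rose with log2 fold changes of 2.97 ± 0.36 and 4.21 ± 0.71, and the vacuolar transporter TT12 (AT3G59030) with a log2 fold change of 4.24 ± 0.54. TT4 and TT12 overlap an opposite-strand gene.

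Gibberellin genes gave 10 rises (45.5%, against 18.4% of all tested genes) and 5 falls (22.7%, against 16.9%) among 22. GA20OX2 (AT5G51810), which makes the precursor of active gibberellin, had 40.3 and 48.7 CPM in open flowers, against 6.49 and 5.38 CPM in buds (log2 fold change 2.91 ± 0.16, edgeR adjusted p = 3.84e-07). GA3OX1 (AT1G15550), the last step to the active hormone, had 8.77 and 10.9 CPM in open flowers, against 2.01 and 1.65 CPM in buds (log2 fold change 2.42 ± 0.30, edgeR adjusted p = 8.81e-05). GA3OX3 (AT4G21690), another copy of that step, had 0 counts in both open flower libraries, against 6.49 and 4.71 CPM in buds (at least 72.1-fold lower). GA3OX1 was higher in both open flower libraries and GA3OX3 in both bud libraries. The 3 receptors GID1A (AT3G05120), GID1B (AT3G63010) and GID1C (AT5G27320) rose with log2 fold changes of 0.62 ± 0.13, 0.80 ± 0.26 and 0.53 ± 0.14, and the DELLA repressors GAI (AT1G14920) and RGL2 (AT3G03450) fell with log2 fold changes of -0.93 ± 0.13 and -1.11 ± 0.15. GASA1 (AT1G75750), a gibberellin-induced peptide gene, rose (log2 fold change 2.48 ± 0.17) and GASA4 (AT5G15230) fell (log2 fold change -1.11 ± 0.21).

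Auxin genes gave 7 rises (38.9%, against 18.4% of all tested genes) and 5 falls (27.8%, against 16.9%) among 18, divided by role. The synthesis genes YUC4 (AT5G11320), YUC2 (AT4G13260), TAA1 (AT1G70560) and YUC6 (AT5G25620) fell with log2 fold changes of -2.66 ± 0.50, -1.14 ± 0.30, -0.88 ± 0.20 and -0.53 ± 0.16, and YUC1 (AT4G32540) had 0.0450 and 0 CPM in open flowers, against 0.325 and 0.827 CPM in buds. Of 10 tested Aux/IAA repressor genes 6 rose. IAA7 (AT3G23050) had 431 and 453 CPM in open flowers, against 143 and 132 CPM in buds (log2 fold change 1.69 ± 0.18, edgeR adjusted p = 2.88e-05). IAA17 (AT1G04250) had 61.9 and 72.8 CPM in open flowers, against 14.5 and 13.0 CPM in buds (log2 fold change 2.29 ± 0.21, edgeR adjusted p = 1.09e-05). The conjugating enzyme GH3.6 (AT5G54510) rose with a log2 fold change of 1.51 ± 0.13. Falls numbered 1 to 4 without 1 of the ASK1 WT libraries. Of 13 tested SAUR genes, small auxin-induced growth genes that share sequence, 6 rose (46.2%) and none fell. SAUR68 (AT1G29490) led the rises, with 5.53 and 4.67 CPM in open flowers, against 1.36 and 0.724 CPM in buds (log2 fold change 2.31 ± 0.49, edgeR adjusted p = 0.00346). The rises were 2 to 6 when 1 ASK1 WT library was left out and 11 in the fit of the 4 libraries alone.

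Jasmonate drives the last steps of stamen growth and anther opening. Of 11 tested genes for its synthesis 3 rose (27.3%, against 18.4% of all tested genes) and 2 fell (18.2%, against 16.9%). Without 1 of the ASK1 WT libraries there were 1 to 3 rises and 1 to 2 falls. LOX4 (AT1G72520), a lipoxygenase of late stamens, had 29.3 and 25.8 CPM in open flowers, against 9.09 and 7.86 CPM in buds (log2 fold change 1.71 ± 0.41, edgeR adjusted p = 0.00727), and its partner LOX3 (AT1G17420) rose with a log2 fold change of 0.85 ± 0.24. OPR3 (AT2G06050) and AOS (AT5G42650) did not pass (log2 fold changes 0.31 ± 0.18 and 0.36 ± 0.23). JAR1 (AT2G46370), which makes the active conjugate, fell, with 32.2 and 36.3 CPM in open flowers, against 135.3 and 134.8 CPM in buds (log2 fold change -1.98 ± 0.14, edgeR adjusted p = 1.50e-06). Of 20 signalling genes 4 rose (20%, close to the 18.4% of all tested genes) and 1 fell (5%, against 16.9%). In the fit of the 4 ASK1 WT libraries alone 8 signalling genes rose and 5 fell. MYB57 (AT3G01530), with MYB21 and MYB24 one of the MYB factors of filament growth, had 115 and 116 CPM in open flowers, against 18.2 and 11.4 CPM in buds (log2 fold change 2.97 ± 0.31, edgeR adjusted p = 3.11e-05), MYB24 (AT5G40350) fell (log2 fold change -1.13 ± 0.22) and MYB21 (AT3G27810) did not pass (log2 fold change 0.45 ± 0.32). The repressors JAZ1 (AT1G19180) and JAZ10 (AT5G13220) rose with log2 fold changes of 1.81 ± 0.21 and 1.505 ± 0.11, and the activator MYC2 (AT1G32640) with a log2 fold change of 1.502 ± 0.34. MYB57, MYB24, MYB21, JAZ10 and MYC2 overlap an opposite-strand gene.

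Scent and nectary genes gave 9 rises and 2 falls among 13, and a summed level of 2409.8 and 2267 CPM in open flowers, against 629 and 537 CPM in buds. CYP71B31 (AT3G53300), a linalool-oxidising P450 of petals, had 441 and 438 CPM in open flowers, against 5.26 and 1.03 CPM in buds (log2 fold change 7.17 ± 0.54, edgeR adjusted p = 2.65e-06). SWEET9 (AT2G39060), the sucrose exporter of nectaries, had 197 and 171 CPM in open flowers, against 15.7 and 11.7 CPM in buds (log2 fold change 3.75 ± 0.21, edgeR adjusted p = 4.00e-07). TPS10 (AT2G24210), a linalool synthase, had 451 and 373 CPM in open flowers, against 83.9 and 49.1 CPM in buds. TPS21 (AT5G23960), a caryophyllene synthase, had 128 and 153 CPM in open flowers, against 31.2 and 23.6 CPM in buds. These 4 genes were higher in both open flower libraries, with log2 fold changes of 7.17 ± 0.54, 3.75 ± 0.21, 2.63 ± 0.42 and 2.36 ± 0.17. BSMT1 (AT3G11480), a methyltransferase of benzoate and salicylate, fell (log2 fold change -2.80 ± 0.32, edgeR adjusted p = 5.29e-05). Over all 21 tested terpene synthases 12 rose (57.1%, against 18.4% of all tested genes) and 3 fell (14.3%, against 16.9%). Over 170 tested P450s 72 rose (42.4%) and 39 fell (22.9%). The terpene synthase falls were 1 to 2 without 1 of the ASK1 WT libraries, and the scent and nectary falls 1 to 2. BSMT1 overlaps an opposite-strand gene.

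Of 15 senescence and abscission genes 13 rose and 1 fell (median 1.77). SAG12 (AT5G45890), a cysteine protease that marks late senescence, had 1107 and 1282 CPM in open flowers, against 0.0649 and 0 CPM in buds (a count ratio of 41104-fold higher, lower bound of its 95% interval 7377-fold). NAP (AT1G69490), a NAC factor of senescence, had 84.6 and 97.6 CPM in open flowers, against 2.21 and 3.93 CPM in buds (log2 fold change 4.86 ± 0.38, edgeR adjusted p = 3.37e-06). SAG13 (AT2G29350) had 115 and 132 CPM in open flowers, against 4.35 and 3.72 CPM in buds (log2 fold change 4.93 ± 0.22, edgeR adjusted p = 7.68e-08). HAE (AT4G28490), the receptor kinase of organ shedding, had 109 and 141 CPM in open flowers, against 12.1 and 13.1 CPM in buds (log2 fold change 3.31 ± 0.29, edgeR adjusted p = 7.87e-06), and the gene of its peptide ligand, IDA (AT1G68765), had 0.810 and 1.05 CPM in open flowers, against 0.130 and 0 CPM in buds (a count ratio of 15.9-fold higher, 95% interval 4.09 to 136). All were higher in both open flower libraries, SAG12 being among the abundant transcripts there and undetected in 1 bud library. The genes of chlorophyll breakdown NYE1 (AT4G22920), PPH (AT5G13800), PAO (AT3G44880) and NYC1 (AT4G13250) rose with log2 fold changes of 2.36 ± 0.16, 1.54 ± 0.12, 1.44 ± 0.14 and 1.57 ± 0.16. ADPG1 (AT3G57510), a polygalacturonase of anther and pod opening, was the fall, with 2.38 and 2.80 CPM in open flowers, against 16.1 and 14.2 CPM in buds (log2 fold change -2.55 ± 0.38, edgeR adjusted p = 3.55e-04).

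Of 8 heat and rapid stress genes 5 rose and none fell. WRKY40 (AT1G80840), a WRKY factor of early stress responses, had 10.9 and 21.7 CPM in open flowers, against 0.325 and 0.621 CPM in buds (log2 fold change 5.04 ± 1.09, edgeR adjusted p = 0.00393). ZAT10 (AT1G27730), a zinc-finger stress factor, had 6.66 and 16.4 CPM in open flowers, against 2.01 and 2.17 CPM in buds (log2 fold change 2.45 ± 0.77, edgeR adjusted p = 0.0297). RRTF1 (AT4G34410), an ethylene-response factor of redox stress, had 7.78 and 25.5 CPM in open flowers, against 0.0649 and 0.103 CPM in buds (a count ratio of 179-fold higher, 95% interval 61.1 to 872). Both open flower libraries were above both bud libraries for these genes, with the open flower library numbered 2 well above that numbered 1. HSP101 (AT1G74310), HSP70 (AT3G12580) and HSP90.1 (AT5G52640) gave log2 fold changes of 0.25 ± 0.16, 0.13 ± 0.18 and -0.02 ± 0.18, and none of the 3 passed. The 5 rises became 2 to 4 when an ASK1 WT library was left out. WRKY40, RRTF1 and HSP101 overlap an opposite-strand gene.

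Among the 12 largest fitted rises of named genes, besides SAG12, EXPA25 and BAN, stood genes with few or no reads in buds. sks8 (AT1G21850), a multicopper-oxidase-like SKU5 gene, had 9.67 and 11.3 CPM in open flowers, against 0 counts in both bud libraries (at least 120.3-fold higher). LAC5 (AT2G40370), a laccase, had 10.08 and 10.15 CPM in open flowers, against 0 counts in both bud libraries. LAC7 (AT3G09220), another laccase, had 5.76 and 8.75 CPM in open flowers, against 0 counts in both bud libraries. GSTU3 (AT2G29470), a tau-class glutathione transferase, had 8.91 and 7.41 CPM in open flowers, against 0 counts in both bud libraries (at least 95.6-fold higher). All were undetected in both bud libraries. PRX52 (AT5G05340), a peroxidase, had 17.8 and 33.3 CPM in open flowers, against 0 and 0.0517 CPM in buds (a count ratio of 852-fold higher, 95% interval 153 to 33704), and BGL2 (AT3G57260), the glucanase also called PR2, had 14.6 and 21.5 CPM in open flowers, against 0.0649 and 0 CPM in buds (a count ratio of 612-fold higher, 95% interval 109 to 24189). The others were LCR19 (AT4G30074), LCR65 (AT1G73607) and scpl21 (AT3G25420), at least 116-fold higher, at least 65.9-fold higher and at least 60.9-fold higher.

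The W-box core TTGAC, the letters that WRKY factors are known to bind, was counted on either strand (as TTGAC or GTCAA) in the 250-base promoters of RefSeq TAIR10.1. It occurred in 190 of 312 promoters of genes that rose at least 32-fold (60.9%), in 280 of 640 of genes that fell at least 32-fold (43.8%) and in 9719 of all 21825 (44.5%). The share was 49.1% over all genes that rose. Other motifs were counted too. In the same 312 promoters CANNTG occurred in 50.3% (55.5% of all promoters), GAGAC in 21.5% (25.4%) and AGAAA in 80.4% (82.2%). These are counts of letters, without a test. Of the 12 largest rises, 6 held at least 1 TTGAC match and 6, SAG12 and BGL2 among them, held none.

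Genes of division and protein synthesis gave few rises in the fit of all 12 libraries. Of 35 cell cycle and replication genes 7 fell (20%, against 16.9% of all tested genes) and 2 rose (5.71%, against 18.4%). CYCB1;1 (AT4G37490), a mitotic cyclin, had 10.7 and 10.8 CPM in open flowers, against 16.8 and 19.5 CPM in buds (log2 fold change -0.76 ± 0.17, edgeR adjusted p = 0.00431), CDT1A (AT2G31270), a replication licensing factor, rose with a log2 fold change of 0.59 ± 0.12, and PCNA1 (AT1G07370), the replication clamp, did not pass (log2 fold change 0.01 ± 0.23). Of 298 tested ribosomal protein genes 9 rose and 16 fell, of 45 histones 1 rose and 2 fell, and of 28 kinesins 1 rose and none fell. These counts rest on the shared spread. In the fit of the 4 ASK1 WT libraries alone, 11 of the cell cycle and replication genes fell and 6 rose. In that fit the ribosomal protein genes gave 65 rises and 41 falls, the histones 1 and 26, and the kinesins 3 and 13. Without the ask1 open flower library numbered 1 they were 74 and 24, 2 and 21, and 3 and 7. Without 1 of the ASK1 WT libraries the ribosomal protein genes gave 4 to 9 rises and 12 to 13 falls, the histones 1 to 2 rises and no fall, and the kinesins neither. The cell cycle falls were 2 to 4 without 1 ASK1 WT library.

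Photosynthesis genes were among the most abundant in both tissues and few passed: 3 of 29 rose (10.3%, against 18.4% of all tested genes) and 1 fell (3.45%, against 16.9%). The list summed to 33576 and 35155 CPM in open flowers, against 31376 and 31112 CPM in buds. RBCS1A (AT1G67090), the small Rubisco subunit, had 4165 and 4430.1 CPM in open flowers, against 4244 and 4042 CPM in buds (log2 fold change 0.05 ± 0.16, edgeR adjusted p = 0.842). GLK2 (AT5G44190) and GLK1 (AT2G20570), paired activators of chloroplast genes, moved in opposite directions, with log2 fold changes of 0.80 ± 0.14 and -0.73 ± 0.15. LHCB1.3 (AT1G29930) and LHCB1.1 (AT1G29920), close copies of a light-harvesting protein, rose with log2 fold changes of 0.57 ± 0.16 and 0.54 ± 0.18. The list had 15 rises and 3 falls without ask1 open flower library 1, and 1 to 2 rises and 0 to 1 falls without 1 of the ASK1 WT libraries. Of 15 clock genes 2 rose and 2 fell (13.3% each, against 18.4% and 16.9% of all tested genes). The 2 rises, PRR9 (AT2G46790) and PRR5 (AT5G24470), were lost whenever an ASK1 WT library was left out, and LUX (AT3G46640), of the evening complex, had 9.72 and 9.97 CPM in open flowers, against 22.3 and 22.4 CPM in buds (log2 fold change -1.19 ± 0.14, edgeR adjusted p = 8.83e-05). LHCB1.3 and LUX overlap an opposite-strand gene.

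Within the SKP1-like family to which ASK1 belongs, 7 of 14 tested genes fell (50%, against 16.9% of all tested genes) and 1 rose (7.14%, against 18.4%). ASK5 (AT3G60020), ASK19 (AT2G03160), ASK11 (AT4G34210) and ASK12 (AT4G34470) had 0 counts in both open flower libraries and between 0.621 and 1.65 CPM in buds. ASK5 was at least 17.8-fold lower. ASK4 (AT1G20140) had 20.11 and 23.6 CPM in open flowers, against 32.4 and 33.7 CPM in buds (log2 fold change -0.60 ± 0.20, edgeR adjusted p = 0.0385), and ASK2 (AT5G42190), the closest copy of ASK1, had 70.8 and 66.3 CPM in open flowers, against 68.0 and 67.9 CPM in buds (log2 fold change 0.01 ± 0.16, edgeR adjusted p = 0.968). Neither ASK1 nor ASK2 passed the test. The F-box proteins, which dock onto ASK subunits, gave 112 falls (40.6%) and 24 rises (8.70%) among 276 tested of 629 genes. The proteasome gave 1 fall (4.55%) and no rise among 22. Of the 276 F-box genes 57 had 0 to 3 counts in a tissue. Tested against a fold of 2, 73 F-box genes fell and 9 rose. Without 1 of the ASK1 WT libraries the F-box rises were 16 to 20, the proteasome fall was lost, and the rise in the SKP1-like family was lost in at least 1 of those fits. ASK4 and ASK2 overlap an opposite-strand gene.

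Per exon length, the highest genes of the open flowers were MT2B (AT5G02380), a metallothionein, with 4234 RPKM in open flowers against 3395 RPKM in buds, LP1 (AT2G38540), a lipid transfer protein, with 3963 RPKM in open flowers against 3434 RPKM in buds, and RBCS1A. In buds LP1 led MT2B, and GRP17 and ATA20 stood among the top 10. VSP1 (AT5G24780), a vegetative storage protein, was in the top 10 of both tissues, with 2291 and 2284 CPM in open flowers, against 2153 and 2198 CPM in buds (log2 fold change 0.07 ± 0.26, edgeR adjusted p = 0.869).

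Col-0 open flowers and buds gave the tissue difference again, from libraries that ASK1 WT does not share. In Col-0 7842 genes (35.8%) changed: 4105 rose (18.8%) and 3737 fell (17.1%). Of the ASK1 WT rises 83.3% also rose in Col-0, which is 81.8% of the Col-0 rises, and of the falls 81.3% also fell, 80.7% of the Col-0 falls. The log2 fold changes correlated across genes at r = 0.951, as a description over genes that are not independent. Of the genes that rose in ASK1 WT 12 fell in Col-0, and none that fell rose. The test of the difference itself, the ASK1 WT effect minus the Col-0 effect, passed for 17 genes (0.0777%), 14 higher (0.064%) and 3 lower (0.0137%) in ASK1 WT.

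**Figure D4:**
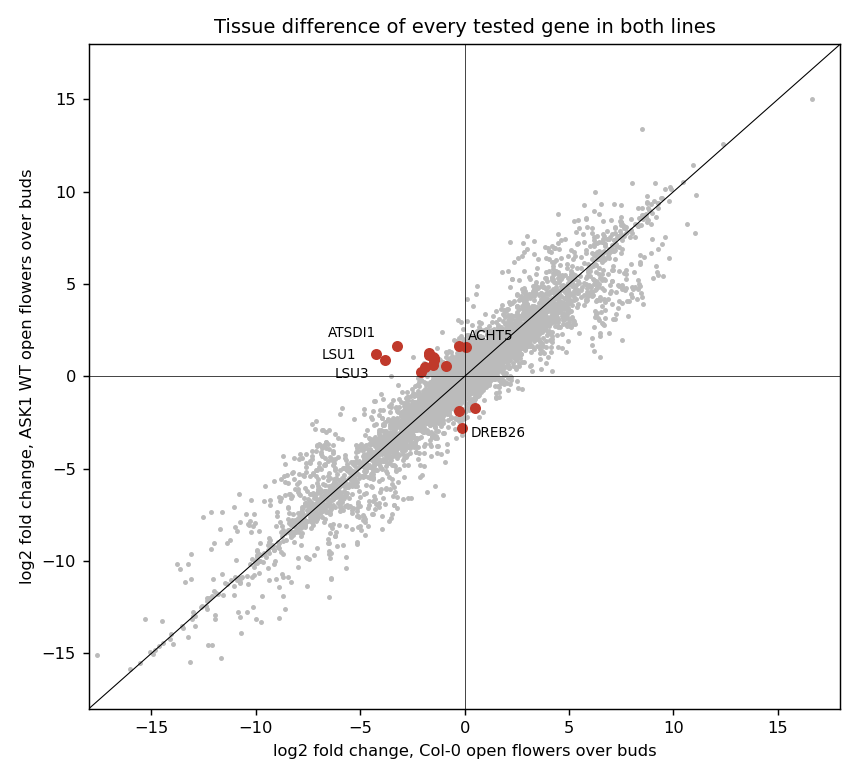
Log2 fold change of open flowers over buds in ASK1 WT (vertical axis) and in Col-0 (horizontal axis) for all 21890 tested genes, with the 17 genes whose tissue effect differed between the lines in red. Most genes lie along the diagonal, and 14 of the 17 lie above it.

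Of those 17 genes 11 belong to sulfate use and the low-sulfur response. When sulfur is short, plants raise sulfate reduction enzymes and the LSU and SDI genes. LSU1 (AT3G49580), a response-to-low-sulfur gene, had 5.44 and 4.08 CPM in ASK1 WT open flowers against 2.27 and 1.86 CPM in ASK1 WT buds, and 0.787 and 0.371 CPM in Col-0 open flowers against 9.76 and 12.6 CPM in Col-0 buds (difference 5.47 ± 0.66, edgeR adjusted p = 0.0139). ATSDI1 (AT5G48850), induced by sulfur deficiency, had 29.2 and 26.9 CPM in ASK1 WT open flowers against 9.15 and 8.89 CPM in ASK1 WT buds, and 3.33 and 6.01 CPM in Col-0 open flowers against 39.7 and 49.2 CPM in Col-0 buds (difference 4.89 ± 0.38, edgeR adjusted p = 0.00105). LSU3 (AT3G49570) had 14.1 and 11.8 CPM in ASK1 WT open flowers against 8.50 and 5.79 CPM in ASK1 WT buds, and 1.94 and 2.60 CPM in Col-0 open flowers against 24.9 and 38.2 CPM in Col-0 buds (difference 4.66 ± 0.39, edgeR adjusted p = 0.00105). In ASK1 WT these genes were higher in open flowers, and in Col-0 they were higher in buds. In ask1 the log2 fold changes were 1.35 ± 0.48 for LSU1, -0.34 ± 0.33 for ATSDI1 and 1.16 ± 0.35 for LSU3. Of these genes only ATSDI1 differed between ASK1 WT and ask1 (difference 1.97 ± 0.41, edgeR adjusted p = 0.0198). Both Col-0 bud libraries were above every other ASK1 WT and Col-0 library for these 3 genes. APR1 (AT4G04610), an APS reductase that reduces activated sulfate, had 146 and 143 CPM in ASK1 WT open flowers against 76.9 and 76.7 CPM in ASK1 WT buds, and 58.7 and 72.6 CPM in Col-0 open flowers against 175 and 189.8 CPM in Col-0 buds (difference 2.38 ± 0.20, edgeR adjusted p = 0.00105). APR2 (AT1G62180) and APR3 (AT4G21990) differed between the lines by 2.11 ± 0.23, edgeR adjusted p = 0.0116, and by 2.45 ± 0.29, edgeR adjusted p = 0.0127. BGLU28 (AT2G44460), a glucosidase that can release sulfur from glucosinolates, had 28.5 and 31.2 CPM in ASK1 WT open flowers against 15.6 and 11.4 CPM in ASK1 WT buds, and 19.0 and 24.6 CPM in Col-0 open flowers against 61.998 and 80.4 CPM in Col-0 buds (difference 2.85 ± 0.34, edgeR adjusted p = 0.0127). SHM7 (AT1G36370) had 133 and 137 CPM in ASK1 WT open flowers against 68.9 and 62.5 CPM in ASK1 WT buds, and 55.1 and 66.6 CPM in Col-0 open flowers against 172 and 179 CPM in Col-0 buds (difference 2.57 ± 0.21, edgeR adjusted p = 0.00105). APR1, APR2 and APR3 overlap an opposite-strand gene.

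The sulfur list was drawn up after these genes had been seen, so its counts are a description. Of its 20 tested genes 14 rose and none fell in ASK1 WT (median 0.83). The 14 became 8 to 12 when an ASK1 WT library was left out, and 2 when tested against a fold of 2. In Col-0 2 rose and 11 fell (median -1.46). The sum was 1487 and 1562 CPM in open flowers, against 802 and 756 CPM in buds in ASK1 WT, and 1001 and 1098 CPM in Col-0 open flowers, against 1368 and 1495 CPM in Col-0 buds. The tissue effect differed from Col-0 for 11 of the 20 and from ask1 for 5 of the 20. Only APR1 and ATSDI1 differed from both. APS4 (AT5G43780), an ATP sulfurylase, was 1 of 2 list members that rose in both lines, with 234 and 269 CPM in open flowers, against 20.8 and 16.8 CPM in buds in ASK1 WT (log2 fold change 3.75 ± 0.18, edgeR adjusted p = 1.18e-07) and a Col-0 log2 fold change of 4.12 ± 0.18. APR1, ATSDI1, LSU3 and SHM7 remained past the threshold in each of 8 fits that left out 1 ASK1 WT or Col-0 library. The other 13 of the 17 passed in 0 or 1 of them. APS4 overlaps an opposite-strand gene.

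**Figure D5:**
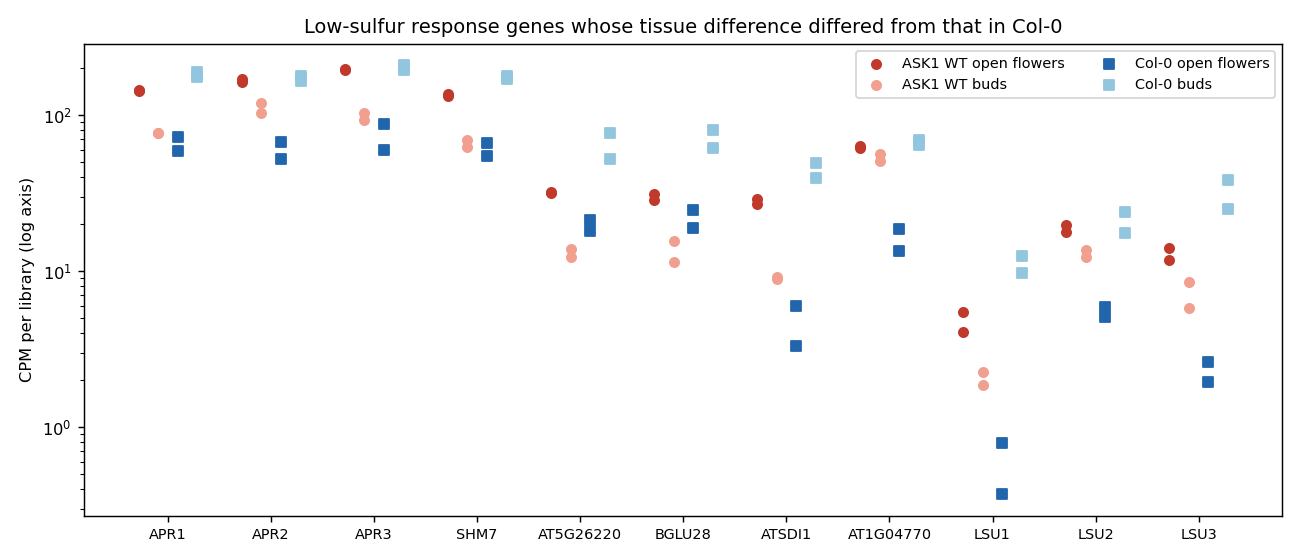
CPM per library (log axis) of 11 sulfate and low-sulfur genes in open flowers and buds of ASK1 WT and of Col-0 (2 libraries per group). Open flowers stand above buds in ASK1 WT for these genes, and Col-0 buds stand above Col-0 open flowers. Within ASK1 WT, AT1G04770 and LSU2 did not pass the test (log2 fold changes 0.23 ± 0.18 and 0.53 ± 0.23, edgeR adjusted p = 0.383 and 0.0964).

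Of the other genes that differed from Col-0, AT5G26220, a ChaC-like gene, and LSU2 (AT5G24660) belong to the sulfur list, and differed by 2.99 ± 0.41, edgeR adjusted p = 0.0274, and by 2.45 ± 0.33, edgeR adjusted p = 0.0274. ACHT5 (AT5G61440), a thioredoxin, differed by 1.94 ± 0.26, edgeR adjusted p = 0.0274, and SIP1;2 (AT5G18290), an aquaporin, by 1.46 ± 0.21, edgeR adjusted p = 0.0426. DREB26 (AT1G21910), an AP2-type factor, had 1.66 and 1.22 CPM in ASK1 WT open flowers against 10.4 and 10.2 CPM in ASK1 WT buds, and 1.76 and 1.61 CPM in Col-0 open flowers against 1.91 and 1.79 CPM in Col-0 buds (difference -2.68 ± 0.34, edgeR adjusted p = 0.0193). BME3 (AT3G54810), a GATA factor, differed by -1.60 ± 0.22, edgeR adjusted p = 0.0335. The ASK1 WT buds held DREB26 above every other ASK1 WT and Col-0 library. The low-sulfur core GAGAC, on either strand, was in 28.6% of the 14 promoters above Col-0 and in 25.4% of all promoters. ACHT5 and SIP1;2 overlap an opposite-strand gene.

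Across genes the log2 fold changes of ASK1 WT and ask1 correlated at r = 0.803, again as a description. In ask1 8248 genes (37.7%) changed, and 68.3% of the ASK1 WT rises and 56.6% of the ASK1 WT falls were also called in ask1 in the same direction, from libraries the groups do not share. The ASK1 WT effect minus the ask1 effect passed for 1492 genes (6.82%), 517 higher (2.36%) and 975 lower (4.45%). The ask1 open flower pair had the lowest replicate correlation, and the 1492 became 3212 without its library 1, 8571 without its library 2, 869 without ask1 bud library 1, and 484 to 605 without 1 of the ASK1 WT libraries. TI1 (AT2G43510), a trypsin inhibitor gene, had 19.0 and 20.06 CPM in ASK1 WT open flowers against 0.649 and 0.827 CPM in ASK1 WT buds, and 9.89 and 3.42 CPM in ask1 open flowers against 49.4 and 41.2 CPM in ask1 buds (difference 7.47 ± 0.59, edgeR adjusted p = 4.61e-04). MYB15 (AT3G23250), a stress-response MYB gene, had 2.38 and 3.97 CPM in ASK1 WT open flowers against 0 and 0 CPM in ASK1 WT buds, and 0.771 and 0.766 CPM in ask1 open flowers against 0.109 and 0.406 CPM in ask1 buds. NIP4;1 (AT5G37810), an aquaporin-like channel of pollen, had 0 and 0 CPM in ASK1 WT open flowers against 19.5 and 18.9 CPM in ASK1 WT buds, and 0.128 and 0.589 CPM in ask1 open flowers against 1.09 and 2.84 CPM in ask1 buds. TI1 was higher in open flowers in ASK1 WT and in buds in ask1. NIP4;1 was high in ASK1 WT buds, and low in both tissues of ask1.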

How the data were processed

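Each library's deposited file lists counts of reads for 33602 genes. Reads were handled with Trimmomatic, TopHat2 and HTSeq against TAIR10, per the submitters' processing notes. Versions, settings and the counting strand are not given in the sources used here. Summary lines for reads outside genes (7.60 to 9.70% of each file) were left out.

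Counts of all 12 libraries entered 1 edgeR 4.0.16 fit (R 4.3.3): TMM scaling, genes kept by filterByExpr (minimum count 10, total 15; 21890 genes), 1 mean per group, 6 residual degrees of freedom, robust quasi-likelihood F-tests of the ASK1 WT tissue contrast and of its difference from Col-0 and ask1, Benjamini-Hochberg threshold 0.05. The SE is the log2 fold change over the square root of F. A fold against 0 counts is a bound against 3 counts over the group. With 1 to 3 counts it is a count ratio with its exact 95% interval. RPKM used TAIR10.1 exon lengths (32835 identifiers matched). The fit was checked on data drawn with known changes.

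Members and lists were chosen with earlier results of these data known. Named genes are the 12 largest rises and falls among symbols at 5 CPM or more, up to 5 changed members of a list and 3 of a family, the 10 highest by RPKM, the 5 largest differences between lines, ASK1, ASK2 and organ identity genes. Other named genes, and the sulfur list, were chosen after their values were seen. Alternatives were DESeq2 1.42.0, other size factors, no filter, a fold of 2, fewer groups and left-out libraries.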

Additional observations from a re-analysis of the deposited data

Results flagged for a closer look

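For 17 genes the open flower over bud effect in ASK1 WT differed from that in Col-0 by the edgeR test of the difference (2 libraries per group). The log2 effect in ASK1 WT exceeded that in Col-0 by 5.465 for LSU1, 4.887 for ATSDI1, 4.66 for LSU3, 2.99 for AT5G26220, 2.855 for BGLU28, 2.57 for SHM7, 2.452 for LSU2, 2.452 for APR3, 2.384 for APR1, 2.30 for AT1G04770 and 2.111 for APR2, all genes of the sulfur list. It also exceeded it by 1.941 for ACHT5, 1.502 for AT4G16447 and 1.456 for SIP1;2. The difference was -2.676 for DREB26, -2.211 for AT3G19680 and -1.598 for BME3. For AT4G16447, of uncharacterized product, the levels were 14.4 and 13.5 CPM in ASK1 WT open flowers against 4.74 and 4.60 CPM in ASK1 WT buds, and 9.99 and 12.3 CPM in Col-0 open flowers against 10.3 and 10.9 CPM in Col-0 buds. AT3G19680, a gene of unknown function, had 39.0 and 40.5 CPM in ASK1 WT open flowers against 149 and 113 CPM in ASK1 WT buds, and 28.2 and 32.9 CPM in Col-0 open flowers against 19.6 and 23.8 CPM in Col-0 buds. AT1G04770, of the tetratricopeptide repeat class, had 63.7 and 61.4 CPM in ASK1 WT open flowers against 56.2 and 50.6 CPM in ASK1 WT buds, and 13.4 and 18.6 CPM in Col-0 open flowers against 64.8 and 69.7 CPM in Col-0 buds. AT3G19680 stood apart in the ASK1 WT buds, and AT1G04770 in the Col-0 open flowers, which were low.

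For the 10 named genes with the widest gaps between ASK1 WT and ask1, the log2 effect in ASK1 WT minus that in ask1 was 11.15 for RRTF1, 10.74 for CYP76G1, 8.615 for DDF1, 7.473 for TI1 and 7.151 for MYB15, and -9.02 for NIP4;1, -7.82 for CCOAMT, -7.367 for LCR5, -6.613 for RLP12 and -6.528 for CLE6. Except for TI1, these genes had libraries at 0 or a few counts in a group, so the fitted values depend on edgeR's prior count and are no bounds. RRTF1 had 7.78 and 25.5 CPM in ASK1 WT open flowers against 0.0649 and 0.103 CPM in ASK1 WT buds, and 0.707 and 0.530 CPM in ask1 open flowers against 0.764 and 15.6 CPM in ask1 buds. DDF1, an AP2-type factor, had 2.83 and 10.6 CPM in ASK1 WT open flowers against 0 and 0.0517 CPM in ASK1 WT buds, and 0.193 and 0.118 CPM in ask1 open flowers against 0.273 and 0.406 CPM in ask1 buds. LCR5, a cysteine-rich peptide gene, had 0.225 and 0 CPM in ASK1 WT open flowers against 43.8 and 37.0 CPM in ASK1 WT buds, and 1.67 and 0.412 CPM in ask1 open flowers against 0.382 and 3.59 CPM in ask1 buds. The replicates within groups stood apart for RRTF1, where ask1 bud library 2 held nearly all of that group's reads, and for DDF1 in ASK1 WT open flowers. In the other genes, CYP76G1, CCOAMT, RLP12 and CLE6, no ASK1 WT library was above 2.07 CPM.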

How the results depend on the processing

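Of the 7738 genes that changed between ASK1 WT open flowers and buds, 70.3 to 72.8% were called again when an ASK1 WT library was left out, 99.0% with other size factors, 95.2% with DESeq2, 93.4% with no filter and 96.9% in a fit of the 4 ASK1 WT libraries, none in the opposite direction. Counts ranged from 5557 to 10975 over left-out libraries, 2815 to 6270 for rises and 2366 to 4705 for falls. Tested against a fold of 2, 3267 genes passed, 1640 that rose and 1627 that fell, and 555 list and family members. Falls were 5628 in the 4-library fit. The 24 largest rises and falls passed in all 11 alternatives.

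The difference from Col-0 gave 17 genes, 84 with DESeq2 (39 higher, 45 lower), 501 in the 8 libraries of both lines (134 higher, 367 lower) and 4 to 7 over left-out libraries (4 to 7 higher, 0 to 2 lower). With no filter 5 were lower. The 17 passed in DESeq2, other size factors, no filter and 8 libraries. The difference from ask1 gave 513 in 8 libraries (227 higher, 286 lower), 484 to 8571 over left-out libraries (155 to 3865 higher, 256 to 4706 lower) and 925 higher with DESeq2. The cause was not tested.

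No paired analysis was possible because the labels give no shared replicate numbers: the numbers follow accession order. Groups of 2 libraries limit small changes, and levels near 0.198 CPM rest on a few counts.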
